A study of Mus musculus with 20 samples.

Results

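The genes described here are 10 genes of branched-chain amino acid breakdown, measured in the left ventricle of mice on 4 diets. They were chosen by gene symbol as members of this pathway and not by a cut on their values, but earlier results of these data were known. All 10 were among the 15956 genes with counts, and all 10 passed the filter on low counts that left 13991 genes for testing. They were *Bcat2*, the mitochondrial branched-chain aminotransferase, *Bckdha*, *Bckdhb* and *Dbt*, which encode subunits of the branched-chain keto acid dehydrogenase, *Bckdk* and *Ppm1k*, the kinase and the phosphatase of that enzyme, *Ivd* and *Mccc1* of leucine breakdown, and *Hibch* and *Hibadh* of valine breakdown.

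Leucine, isoleucine and valine are essential amino acids whose breakdown takes place mainly outside the liver, in muscle, fat and heart. A transaminase first turns each into its keto acid, the dehydrogenase complex then removes the carboxyl group in a step that cannot be reversed, and separate chains of mitochondrial enzymes carry the products to acetyl-CoA, succinyl-CoA and ketone body precursors. The kinase switches the complex off by phosphorylation and the phosphatase switches it back on, and low activity of this pathway with a build-up of the keto acids is known from failing and diabetic hearts. Dietary protein is the source of these amino acids, and obesity is known for a raised level of them in blood.

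RNA was measured by QuantSeq, a method that reads the 3′ end of each transcript. Each of the 20 libraries came from the left ventricle of a mouse with its own animal number within its diet, with 5 mice on each diet. The title of LP 5 alone also carries the words sample 2, which the labels do not explain, and it was kept as a mouse of its own. NP mice ate a diet with normal protein and LP mice one with low protein. HF mice ate a high-fat diet with normal protein, HF + LP mice a high-fat diet with low protein, and the study asked how protein restriction acts on the aging heart with and without obesity. The labels give an age of 18 months for all 20 mice, whereas the study's methods place collection at a younger age. The methods describe male mice, no transgene is named, and the strain is not given in the sources used here. Every group shared age, sex and tissue and differed in diet. The study's diet table lists less carbohydrate in each high-fat diet, and more in each low-protein diet, than in its counterpart. In these comparisons fat or protein therefore cannot be told apart from carbohydrate. The left ventricle is a mixed tissue, and in bulk RNA fewer cells of a type and less RNA per cell cannot be told apart.

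Total counts per library lay between 12559607 and 23331907, and mitochondrially encoded transcripts took from 35.37% to 47.15% of them. The 7 cardiomyocyte markers summed to 28350 CPM (counts scaled to library size) or more in every mouse. Markers of atrial muscle, summed, ranged from 57.18 to 14480 CPM over the 20 mice and those of adipocytes from 0.5186 to 304 CPM. The LP mouse with animal number 13 stood apart, with a median Pearson correlation across genes (log2 CPM) to its own group of 0.9079 where all other mice were at 0.9437 or above. Mice are named here by diet and animal number, and results that rest on LP 13 are given with and without it.

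Levels are TMM-normalized counts. A level does not grow with transcript length in these 3′ libraries, but it does depend on how well each 3′ end is captured, so levels of different genes were put in order only as counts. *Hibadh*, which oxidises the valine product 3-hydroxyisobutyrate, had the highest mean over the 20 mice, 2613 normalized counts. *Ivd*, the isovaleryl-CoA dehydrogenase, followed at 1759 and *Ppm1k* at 1556. Then came *Bckdha* at 862.1, *Hibch* at 744.6, *Mccc1* at 740, *Bckdk* at 678.6, *Dbt* at 598.1 and *Bckdhb* at 583.2 normalized counts. *Bcat2* came last, at 237.8. *Ppm1k*, at 1248 to 2084 over the 20 mice, did not overlap with *Bckdha*, at 367.3 to 1111, and all other neighbours in this order overlapped. In raw counts, *Bcat2* had 128 to 516 per library. The summed share of all 10 genes was 0.06446% ± 0.007408 for NP mice and 0.06411% ± 0.0056 for LP mice (SD, n = 5 each). HF mice had 0.06202% ± 0.01414 and HF + LP mice 0.05439% ± 0.008072.

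All 10 are protein-coding genes of the nucleus (GRCm38, GENCODE M21). *Bcat2* (chr7:45570153-45589711, plus strand), *Bckdha* (chr7:25629946-25658981, minus) and *Bckdk* (chr7:127904082-127910221, plus) lie far apart on chromosome 7. *Dbt* (chr3:116513070-116549981, plus) and *Mccc1* (chr3:35959312-36000678, minus) lie on chromosome 3, and *Hibadh* (chr6:52546228-52640389, minus) and *Ppm1k* (chr6:57506502-57535468, minus) on chromosome 6. *Hibch* (chr1:52844929-52920986, plus), *Ivd* (chr2:118861954-118882909, plus) and *Bckdhb* (chr9:83925145-84124240, plus) are each alone on a chromosome.

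How far a gene varied between mice on the same diet differed widely among the 10. *Bckdk* was the steadiest, with a within-diet SD of 0.154 on the log2 scale, and its highest mouse was 1.53-fold above its lowest over all 20. *Ppm1k* had an SD of 0.181. *Hibch*, which frees 3-hydroxyisobutyrate from coenzyme A, and *Hibadh*, the next enzyme, were the least steady, with SDs of 0.618 and 0.641 and a spread of 4.77-fold and 4.89-fold from lowest to highest mouse. The median SD of the 10 genes was 0.27, compared with 0.224 for the 4922 tested genes in the same range of levels.

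**Figure D1:**
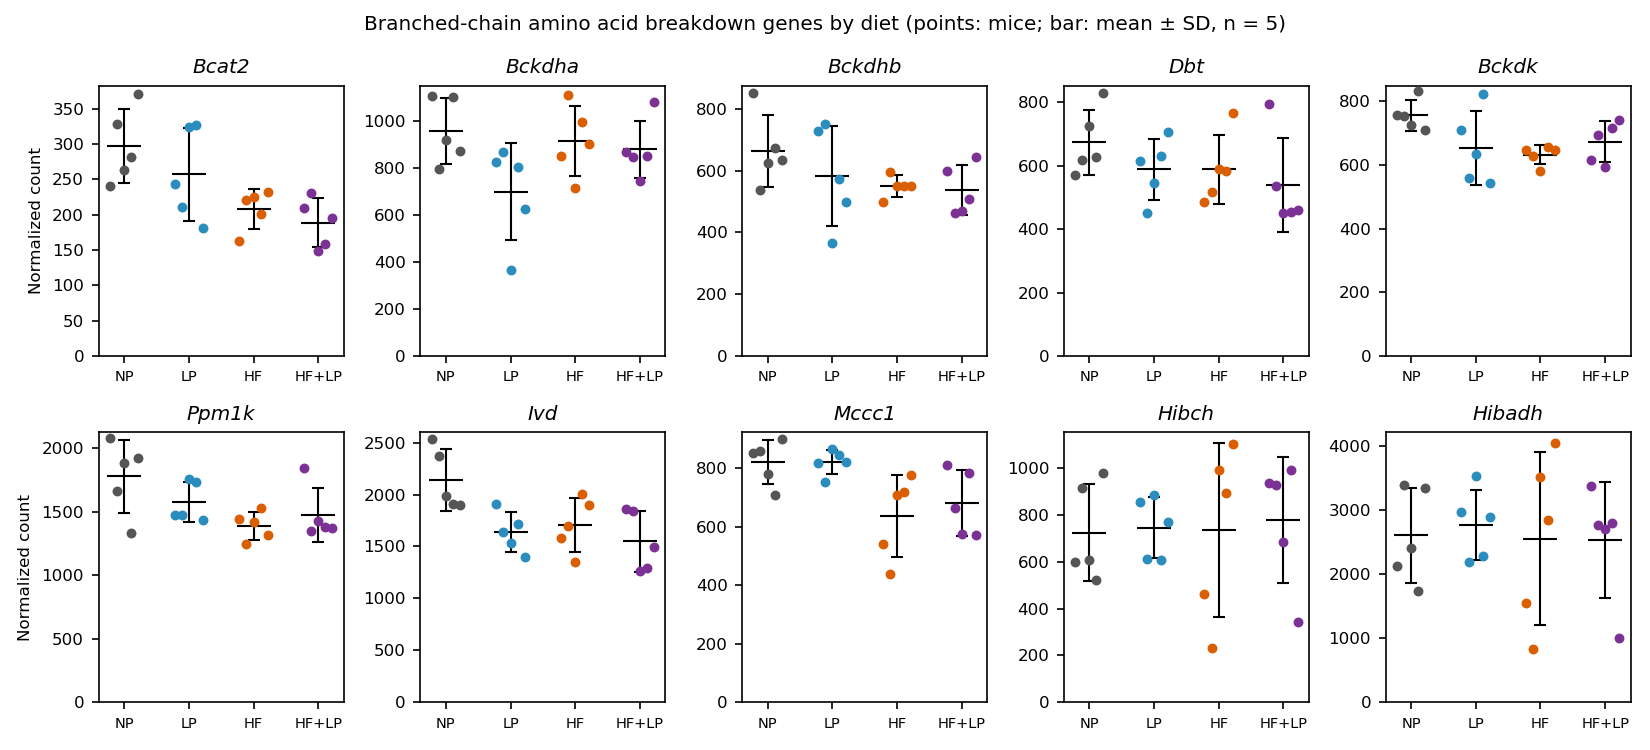
Level of each of the 10 genes in each of the 20 mice, by diet, in TMM-normalized counts (points, mice; bars, mean ± SD, n = 5 per diet; each panel has its own axis from 0). NP had the highest mean for 7 of the 10 genes, and the HF mice separated from the NP mice for *Bcat2* and *Bckdk*.

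Across diets, the NP mean was the highest of the 4 diets for 7 of the 10 genes, and the HF + LP mean was the lowest for 5 and the HF mean for 3. The full order from NP through LP and HF to HF + LP held for 3 genes, *Bcat2*, *Bckdhb* and *Dbt*. The exceptions at the top were *Mccc1*, with near-equal means of 820.9 in LP and 820.5 in NP, *Hibadh*, highest in LP, and *Hibch*, highest in HF + LP. These orders are a description without a test.

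The comparison of HF with NP asked what high-fat feeding did at normal protein. *Bcat2*, *Ppm1k*, *Mccc1*, *Bckdk* and *Ivd* had the smallest p-values, all with lower levels in HF, 9 of the 10 genes were lower in HF, and none met the criteria for a call, an adjusted p under 0.01 with a mean level over 50. Their median log2 fold change was -0.27, whereas that of all tested genes was -0.001. Unadjusted p-values were under 0.05 for 5 of the 10 genes, and for 13.1% of all tested genes. Calls were made for 0.264% of all tested genes. DESeq2, run as an alternative, called none of the 10 in this or any other comparison and gave 5 of them an unadjusted p below 0.05 here. In edgeR this number fell to 3 without HF 3, and without HF 1, HF 2 and HF + LP 5 together the lower genes with such a p were 2, *Bcat2* and *Ppm1k*.

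*Bcat2* encodes the enzyme of the first, reversible step. Its normalized counts were 328.2, 263.6, 241, 282.2 and 371 in the NP mice, and 162.7, 220.1, 224.4, 200.6 and 231.7 in the HF mice. Every HF mouse was below every NP mouse, although the highest HF value and the lowest NP value lay close together. The log2 fold change was -0.51 ± 0.17 (SE), a difference of -29.9% between the means, with an unadjusted p of 0.00719 and an adjusted p of 0.154 (edgeR, Benjamini-Hochberg over all tested genes).

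*Bckdk*, which inactivates the dehydrogenase, also did not overlap between these groups. Its normalized counts were 754.2, 725.1, 757.2, 833.7 and 710.2 in NP and 648.4, 628.6, 580.7, 655.6 and 648.2 in HF. The 5 HF values were tightly grouped and all below the NP range. The log2 fold change was -0.26 ± 0.11 (adjusted p = 0.279 in edgeR). Thus 2 of the 10 genes, *Bcat2* and *Bckdk*, had no overlap between HF and NP, whereas 5.67% of all tested genes had none.

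*Ppm1k*, which reactivates the dehydrogenase, had 1667, 1888, 2084, 1338 and 1924 normalized counts in NP and 1443, 1248, 1418, 1533 and 1316 in HF. NP 6, at 1338, lay inside the HF range and the other NP mice above it. The log2 fold change was -0.355 ± 0.12 (unadjusted p = 0.00712, adjusted p = 0.153 in edgeR). The kinase and the phosphatase therefore differed in the same direction. The log2 ratio of *Bckdk* to *Ppm1k* was -1.22 ± 0.326 for NP and -1.28 ± 0.197 for LP mice (mean ± SD, n = 5 each). For HF mice it was -1.14 ± 0.128 and for HF + LP mice -1.13 ± 0.294. The diets differed in this ratio by less than the spread within NP. A ratio of transcripts says nothing about the phosphorylation of the enzyme, which was not measured in these libraries.

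The 3 genes of the complex itself had unadjusted p-values above 0.05. *Bckdha*, the alpha subunit of the decarboxylating component, averaged 957.6 ± 139 normalized counts in NP and 914.4 ± 150 in HF, with a log2 fold change of -0.07 (95% confidence interval -0.45 to 0.31). *Bckdhb*, its beta subunit, had a log2 fold change of -0.27 (-0.61 to 0.07). *Dbt*, the transacylase core, had -0.19 (-0.54 to 0.15). All 3 intervals include 0.

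Further along the leucine branch, *Ivd* had 2375, 1981, 2533, 1911 and 1895 normalized counts in NP and 1578, 1696, 1355, 2001 and 1904 in HF, and the groups overlapped (log2 fold change -0.33 ± 0.14, adjusted p = 0.294 in edgeR). *Mccc1*, the biotin-carrying subunit of methylcrotonyl-CoA carboxylase, had 860.5, 781.5, 851.8, 709.8 and 899.1 in NP and 540.3, 438.8, 708.2, 718 and 778.6 in HF. HF 1 and HF 2 were the lowest 2 of all 20 mice for *Mccc1*, and the other 3 HF mice lay within or near the NP range. Its log2 fold change was -0.36 ± 0.14 (adjusted p = 0.233 in edgeR). It was -0.16 ± 0.12 (unadjusted p = 0.191) without HF 1, HF 2 and HF + LP 5, an alternative chosen after the values were seen. The valine genes had log2 fold changes near 0, 0.03 ± 0.33 for *Hibch* and -0.025 ± 0.34 for *Hibadh*. Their intervals were wide, -0.66 to 0.71 for *Hibch* and -0.74 to 0.69 for *Hibadh*.

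Markers of cardiomyocytes differed too. All 7 were lower in HF than in NP, 4 of them with an unadjusted p under 0.05, and their summed level was 28350 to 36830 CPM in HF and 37890 to 45130 CPM in NP. *Myh6*, the alpha-myosin heavy chain, had a log2 fold change of -0.70 ± 0.13 (adjusted p = 0.0124 in edgeR). Macrophage markers summed to 188.3 to 270.8 CPM in HF and 146.3 to 230.8 CPM in NP, with 6 of 6 higher. Of 5 markers of mural cells, 4 were lower, and their summed levels overlapped, at 406.7 to 499.5 CPM in HF and 448.2 to 499.9 CPM in NP. Their median log2 fold change was -0.756, and *Myh11*, the smooth muscle myosin, was lowest at -1.39 ± 0.32 (edgeR, adjusted p = 0.0341). Erythroid markers were higher, 5 of 5, at 6022 to 13170 CPM in HF and 3583 to 10500 CPM in NP. Fibroblast markers were higher in 6 of 6 (median log2 fold change 0.18), endothelial markers in 5 of 6 (0.185) and atrial markers in 4 of 4 (1.31). None of them had an unadjusted p under 0.05. The summed atrial level nevertheless had a lower median in HF, 190.2 CPM where NP had 1229 CPM. It reached 12050 CPM in HF and 3560 CPM in NP at most. Adipocyte markers were lower in 5 of 6. The mitochondrially encoded share did not overlap, at 38.12% to 39.76% in HF and 41.26% to 47.11% in NP. The part of these shifts in the differences of the 10 genes was not tested.

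**Figure D2:**
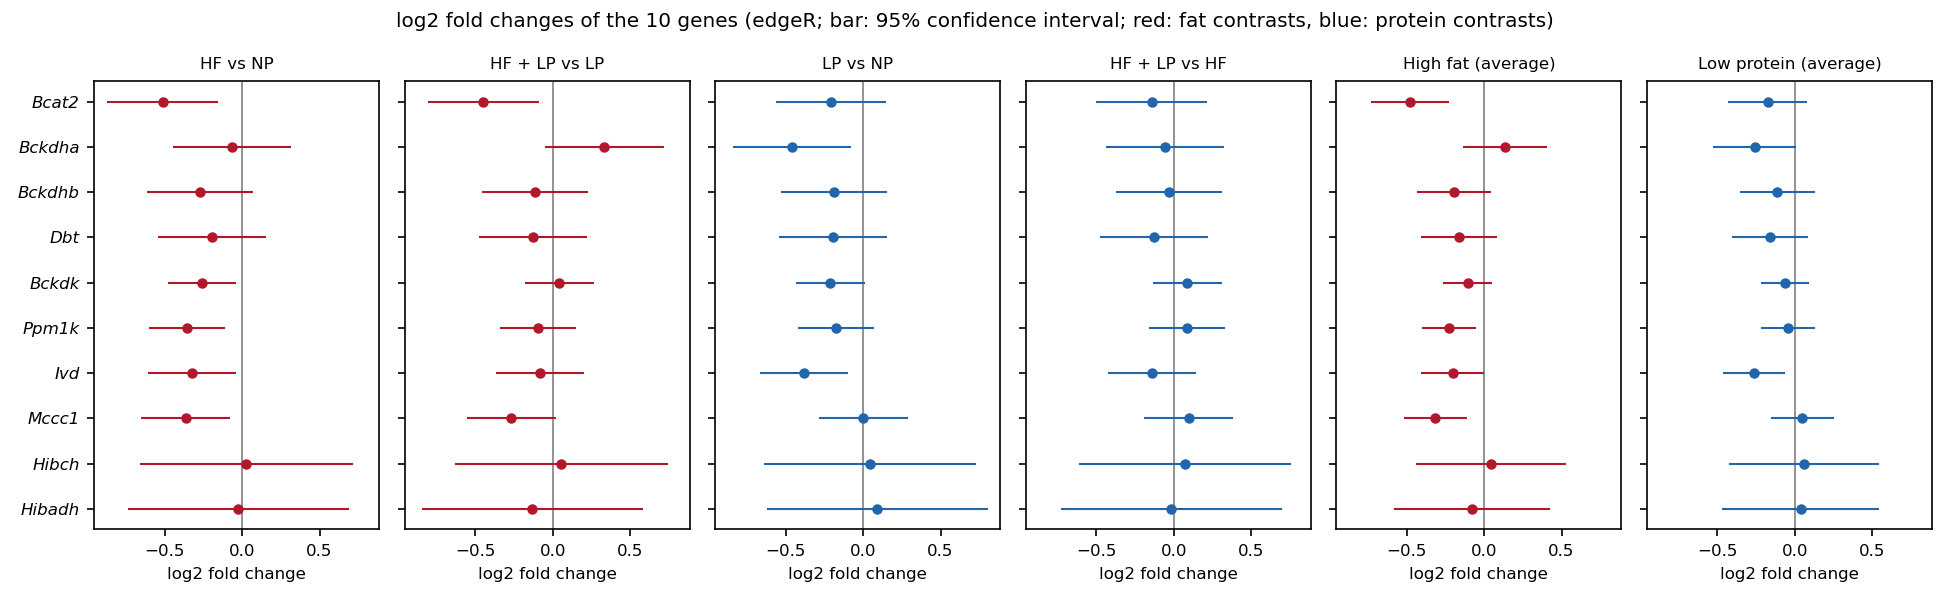
Log2 fold change of each of the 10 genes in 4 comparisons of diets and in the averages for high fat and low protein (points, edgeR estimate; bars, 95% confidence interval; negative values, lower in the diet named first; red, fat, and blue, protein). *Bcat2* had the most negative value in both high-fat comparisons, -0.51 in HF against NP and -0.45 in HF + LP against LP, and no gene met the criteria for a call.

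The comparison of HF + LP with LP asked the same at low protein. *Bcat2* was again the most negative gene, with 243.5, 324.6, 181.5, 326.5 and 210.3 normalized counts in LP and 209.4, 230.8, 148.3, 159 and 195.9 in HF + LP. The 2 groups overlapped. Its log2 fold change was -0.45 ± 0.17 (unadjusted p = 0.0173, adjusted p = 0.207 in edgeR). Without LP 13 it was -0.35 ± 0.17 (unadjusted p = 0.0596), and without LP 15 its p was also above 0.05. *Mccc1* was at -0.27 ± 0.14 and *Bckdha* at 0.33 ± 0.18, which was 0.165 ± 0.14 without LP 13. *Bckdk* and *Ppm1k*, at 0.04 ± 0.11 and -0.095 ± 0.12, were close to 0 here. Of the 10 genes, 7 were lower and 1, *Bcat2*, had an unadjusted p under 0.05, compared with 15.9% of all tested genes. This count of 1 was 0 without LP 13 or LP 15 and 2 without LP 5, HF 2, HF + LP 1 or HF + LP 4. None was called and none separated the groups, whereas 0.1% of all tested genes were called and 1.87% did not overlap. The median log2 fold change was -0.105 for the 10 genes and -0.03 for all tested genes. The former was -0.172 without HF + LP 1, -0.053 without HF + LP 3, -0.063 without LP 2 and -0.07 without HF + LP 5. Adipocyte markers were lower in 6 of 6, all with an unadjusted p under 0.05 and with a median log2 fold change of -4.73, at 0.726 to 11.26 CPM in HF + LP and 4.715 to 304 CPM in LP. Mural markers were lower in 4 of 5, 2 of them with such a p, at 434.4 to 577.9 CPM in HF + LP and 364.7 to 530.5 CPM in LP. Of the other lists, 4 of 4 atrial, 5 of 6 macrophage, 5 of 6 fibroblast, 4 of 6 endothelial, 3 of 7 cardiomyocyte and 1 of 5 erythroid markers were lower. The part of these markers in the values of the 10 genes was not tested.

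Averaged over both protein levels, with 10 mice on high fat and 10 without, *Bcat2* had a log2 fold change of -0.48 ± 0.12 (95% confidence interval -0.73 to -0.23), or -28.3% (unadjusted p = 0.000784, adjusted p = 0.0271, edgeR with Benjamini-Hochberg adjustment). This missed the adjusted p of 0.01. It was the smallest adjusted p of any of the 10 genes in any comparison. *Mccc1* followed at -0.32 ± 0.10 (adjusted p = 0.0661), then *Ppm1k* at -0.225 ± 0.08 (adjusted p = 0.127) and *Ivd* at -0.20 ± 0.10 (adjusted p = 0.232), all from the same edgeR fit. Without HF 1, HF 2 and HF + LP 5, *Bcat2* was at -0.45 (adjusted p = 0.0756 in edgeR) and *Mccc1* at -0.18. Of the 10 genes, 8 were lower on high fat and 4 had an unadjusted p under 0.05, where 20.8% of all tested genes did and 1% were called. The median log2 fold change was -0.18 for the 10 and -0.02 for all tested genes. Adipocyte markers, summed, reached 304 CPM in LP and 48.37 CPM in NP but 68.44 CPM in HF and 11.26 CPM in HF + LP at most, and all 6 were lower on high fat with an unadjusted p under 0.05. The mural marker *Myh11* fell on high fat, with a log2 fold change of -1.54 ± 0.225 (edgeR, adjusted p = 0.000572). Cardiomyocyte markers were lower in 6 of 7, with 3 at an unadjusted p under 0.05, and *Myh6* fell (log2 fold change -0.55 ± 0.095, adjusted p = 0.00252 in edgeR). The part of these markers in the values of the 10 genes, and of adipocytes in those for *Bcat2*, which adipocytes also express, was not tested.

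Because *Bcat2* showed the largest difference, its promoter is given. The 250 bases before the upstream RefSeq start of *Bcat2* lie at chr7:45569903-45570152 on the plus strand (RefSeq, GRCm38.p6). Capitals mark the letters CACCC or their reverse complement GGGTG, a short motif known from binding sites of Krüppel-like factors such as KLF15, which drives these genes in muscle.
Bcat2: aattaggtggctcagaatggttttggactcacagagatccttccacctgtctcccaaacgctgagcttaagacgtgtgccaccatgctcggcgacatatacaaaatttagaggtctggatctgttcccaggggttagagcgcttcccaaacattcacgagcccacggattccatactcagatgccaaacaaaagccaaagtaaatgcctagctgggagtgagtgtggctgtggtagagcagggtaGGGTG

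The window ended in a single such match and held no CACGTG, the palindromic core of the E box, which occurs within elements bound by ChREBP. Both motifs were searched on both strands and share no positions with each other. CACCC was present in 52% of 32851 promoter windows of this length and CACGTG in 6.02%. No window of the 9 member genes with a promoter entry held CACGTG, and 6 of the 9 had CACCC in at least 1 window. A match of letters is a description and not a binding site.

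The comparison of LP with NP asked what protein restriction did without high fat. *Ivd* and *Bckdha* were the 2 genes with an unadjusted p under 0.05, which 7.23% of all tested genes had. Without NP 3, without LP 13, or with only these 2 diets in the model, 1 gene had such a p, and without LP 2, LP 15 or HF + LP 3, or with DESeq2, 3 genes did. *Ivd* had 1910, 1530, 1401, 1721 and 1641 normalized counts in LP, of which LP 2 alone lay inside the NP range of 1895 to 2533 (log2 fold change -0.38 ± 0.14, unadjusted p = 0.0108, adjusted p = 0.582 in edgeR). *Bckdha* had 826.2, 367.3, 624.2, 805.4 and 866.8 in LP and 793.6, 917.9, 1105, 1100 and 872 in NP. LP 13, at 367.3, was far below every other mouse. The log2 fold change of *Bckdha* was -0.46 ± 0.18 with it (adjusted p = 0.634 in edgeR) and -0.30 without it (unadjusted p = 0.0523). Counts of *Bckdha* may also include reads of *B3gnt8*, a gene on the opposite strand whose exons overlap 1171 bases of it at its 3′ end, because the sources used here do not say whether counting used strand. *B3gnt8* itself had 131 normalized counts in NP and 113 in LP.

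In LP against NP, 7 of the 10 genes were lower, with a median log2 fold change of -0.19 compared with 0.02 for all tested genes. None was called, and calls were made for 0% of all tested genes. This comparison and that of HF with NP share the 5 NP mice. None of the 10 separated the groups, whereas 0.786% of all tested genes did. *Mccc1* was at 0.00 (-0.29 to 0.29). Without LP 13, *Mccc1*, *Hibch* and *Hibadh* were at -0.022, -0.029 and -0.015, and *Bckdhb* was at -0.058 where it was -0.19 with it. The number of lower genes was 7 to 10 with each mouse left out in turn and 6 with the animal number as a block. The cardiomyocyte markers were all lower too, 7 of 7, with summed levels of 29560 to 41510 CPM in LP. Adipocyte markers were higher, 6 of 6, 2 of them with an unadjusted p under 0.05, at 4.715 to 304 CPM in LP and 1.391 to 48.37 CPM in NP. Erythroid markers were higher in 5 of 5, at 5646 to 12900 CPM in LP, atrial markers in 4 of 4, macrophage markers in 5 of 6 and mural markers in 4 of 5, while fibroblast and endothelial markers were split evenly. The part of these shifts in the values of the 10 genes was not tested.

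The comparison of HF + LP with HF asked what protein restriction did on a high-fat diet. The labels give weights of 56.1 to 60.9 g for HF and 41.2 to 56.1 g for HF + LP mice. The part of body weight was not tested. Here the 10 genes differed little, with log2 fold changes from -0.14 to 0.10 and no unadjusted p under 0.05, compared with 4.84% of all tested genes. The median was -0.02 for the 10, between -0.074 and 0.026 with each mouse left out in turn, and 0.02 for all tested genes. *Ivd* had the smallest p, 0.315, at -0.14 ± 0.14 (edgeR, adjusted p = 0.999). *Bckdk* was at 0.09 (-0.13 to 0.31) and *Ppm1k* at 0.085 (-0.16 to 0.33), and the *Bcat2* interval ran from -0.50 to 0.22. These intervals leave room for moderate differences, and a p above the threshold does not show that the diets acted alike. None of the 10 was called or separated the groups, whereas 0% of all tested genes were called and 1.18% separated. DESeq2 called 16 genes in this comparison, and edgeR called 1 without HF 1. Without HF 1, HF 2 and HF + LP 5 together, the median of the 10 genes was -0.138, and 8 were lower where 6 were with them. Cardiomyocyte markers were higher in HF + LP in 7 of 7 and erythroid markers in 5 of 5. Fibroblast, macrophage and adipocyte markers were lower in 6 of 6 each and atrial markers in 4 of 4, and endothelial and mural markers were mixed. The part of these shifts was not tested.

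Averaged over both fat levels, *Ivd* was the only one of the 10 with an unadjusted p under 0.05 for low against normal protein (log2 fold change -0.26 ± 0.10, unadjusted p = 0.0133, adjusted p = 0.784 in edgeR). Such a p was found for 5.47% of all tested genes, and a call for 0%. The count of 1 became 2 with DESeq2, with RLE size factors and without each of 7 single mice (NP 4, LP 2, LP 5, LP 15, HF 3, HF + LP 1, HF + LP 5). The interval was -0.46 to -0.06 for *Ivd* and -0.53 to 0.01 for *Bckdha*. The interaction, which asks whether protein restriction acted differently on a high-fat background, was positive for 9 of the 10 genes and had no unadjusted p under 0.05, where 7.17% of all tested genes did and 0% were called. This count of 0 became 1 without NP 6, LP 2, LP 15, HF + LP 1 or HF + LP 3. The number of positive genes depended on single mice, from 6 without NP 8 to 10 without NP 6, HF 3, HF 5 or HF + LP 5, and was 5 without HF 1, HF 2 and HF + LP 5 together. *Bckdk* had the smallest p, 0.058, with an interaction of 0.30 ± 0.15 (adjusted p = 0.702 in edgeR). Without LP 13, the interaction of *Bckdha* was 0.23 ± 0.20 where it was 0.40 ± 0.26 with it. The interaction was also positive for 14 of 14 citrate cycle genes, 7 of 7 cardiomyocyte, 3 of 6 endothelial and 2 of 5 mural markers. It was negative for 6 of 6 adipocyte, fibroblast and macrophage markers each, 4 of 4 atrial and 5 of 5 erythroid markers. The part of these markers in the values of the 10 genes was not tested.

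Mice on the same diet differed from each other along lines that the 10 genes shared in part. Levels in log2 CPM were centred on the mean of each diet and compared over all 20 mice for 7 pairs of functional partners, with 100000 permutations within diets and Benjamini-Hochberg adjustment over the pairs. *Hibch* and *Hibadh*, consecutive enzymes of valine breakdown, had the closest relation (Pearson r = 0.979, Spearman rho = 0.95, p = 1e-05 for both, the smallest these permutations can give, adjusted p = 7e-05). The value remained 0.953 when HF 2 and HF + LP 5, the mice farthest from the median of *Hibch*, were left out. *Bckdha* and *Bckdhb*, whose products join in the same heterotetramer, also moved together (r = 0.86 with p = 2e-05 and adjusted p = 7e-05, rho = 0.827 with p = 5e-05 and adjusted p = 0.000175). Without LP 5 and LP 13 it was 0.731.

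The other 5 pairs did not pass this test. *Dbt*, the third subunit, gave r = -0.112 with *Bckdha* (rho = -0.137) and -0.064 with *Bckdhb* (rho = -0.089). *Bckdk* and *Ppm1k* gave -0.097 (rho = -0.087) and *Bcat2* and *Bckdha* -0.23 (rho = -0.114). *Ivd* and *Mccc1*, both of leucine breakdown, gave 0.242 (rho = 0.198). Their adjusted permutation p-values lay from 0.742 to 0.801. Without the 2 mice farthest from the median of the gene named first, these 5 values ranged from -0.411 to 0.275.

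**Figure D3:**
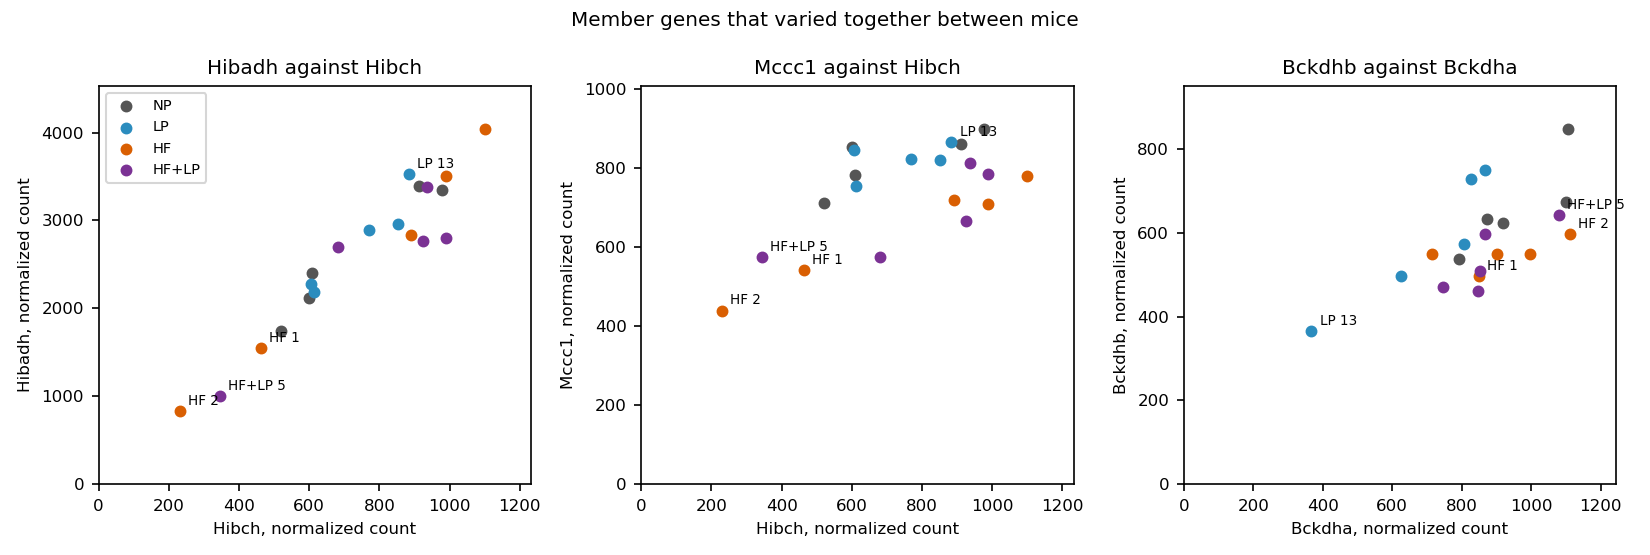
Levels of *Hibadh* and *Mccc1* against *Hibch*, and of *Bckdhb* against *Bckdha*, in TMM-normalized counts on linear axes (points, 20 mice; colours, diets; HF 1, HF 2, HF + LP 5 and LP 13 are named). HF 1, HF 2 and HF + LP 5 are lowest for *Hibch* and *Hibadh*, and LP 13 is lowest for *Bckdha* and *Bckdhb*.

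The low end of the *Hibch* and *Hibadh* line was set by 3 mice. HF 1 had 462.8 normalized counts of *Hibch*, HF 2 had 230.6 and HF + LP 5 had 344.4, where the other 17 mice had 519.7 to 1100. For *Hibadh* the same mice had 1548, 827.6 and 998.2, where the other 17 had 1740 to 4044. *Mccc1*, from the leucine branch, followed *Hibch* with a within-diet r of 0.896, given as a description because this pair was noticed in the data.

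The pattern was not limited to the pathway. Of 10158 other genes with a mean level over 50, 195 had a within-diet r above 0.9 with *Hibch* and 1 had one below -0.9, together 1.93%. All of these values come from the same 20 libraries and share their depth and composition. HF 1 and HF 2 also had the lowest total counts of the HF group, 13031879 and 12559607, whereas HF + LP 5 had 18762093, the highest of the HF + LP group. The part of depth or tissue composition in this line was not tested. Leaving out these 3 mice changed the values of *Hibch* in HF against NP from 0.03 to 0.46 (unadjusted p = 0.0339, adjusted p = 0.281 in edgeR), a choice made after seeing the levels and by the gene's own values, so that the p is no support.

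**Figure D4:**
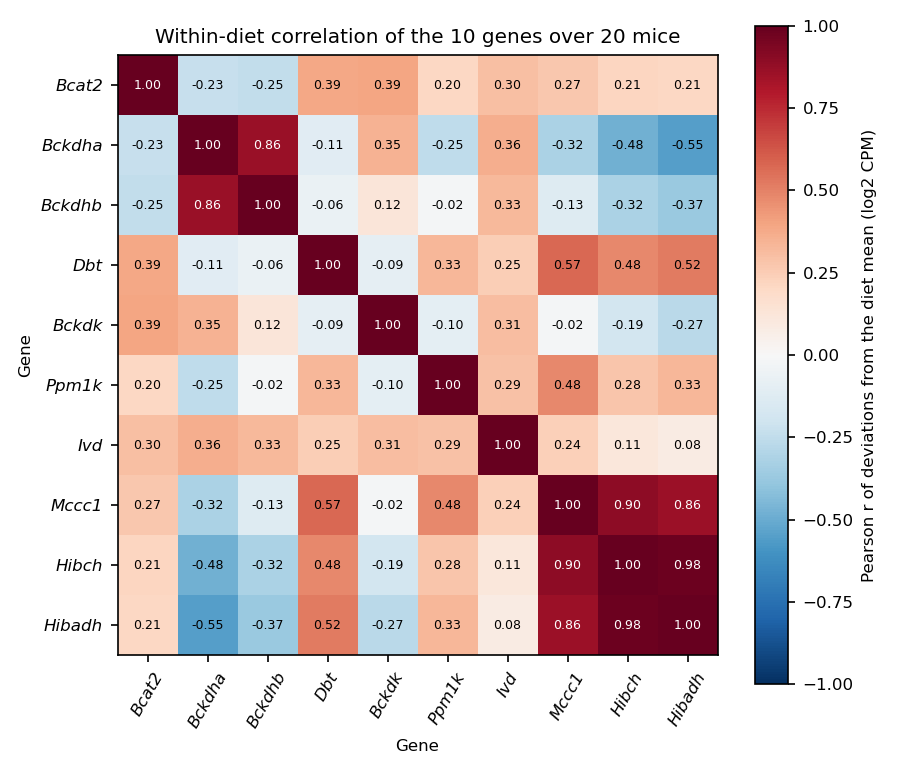
Pearson correlation of each pair of the 10 genes over 20 mice after centring on diet means, on a scale from -1 to 1. *Hibch*, *Hibadh* and *Mccc1* form a positive block and *Bckdha* with *Bckdhb* another, and *Hibch* with *Bckdha* stood at -0.481.

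The promoters of the genes that moved together are shown because shared sequence can be looked for in them. They are the 250 bases before the RefSeq start, on GRCm38.p6, at chr1:52844788-52845037 on the plus strand for *Hibch*, chr6:52640301-52640550 on the minus strand for *Hibadh*, chr7:25658762-25659011 on the minus strand for *Bckdha* and chr9:83924887-83925136 on the plus strand for *Bckdhb* (the upstream of its 2 starts). Each is written 5′ to 3′ on the gene's own strand, and capitals mark CACCC or GGGTG as above.
Hibch: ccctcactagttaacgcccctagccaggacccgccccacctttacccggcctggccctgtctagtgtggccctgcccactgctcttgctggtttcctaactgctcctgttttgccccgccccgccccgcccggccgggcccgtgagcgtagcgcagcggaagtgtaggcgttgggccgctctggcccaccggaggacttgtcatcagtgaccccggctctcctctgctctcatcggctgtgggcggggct
Hibadh: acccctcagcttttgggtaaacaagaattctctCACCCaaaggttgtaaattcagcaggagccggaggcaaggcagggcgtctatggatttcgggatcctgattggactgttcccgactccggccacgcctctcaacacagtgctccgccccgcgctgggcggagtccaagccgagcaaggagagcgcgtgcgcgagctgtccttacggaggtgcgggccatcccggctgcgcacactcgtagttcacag
Bckdha: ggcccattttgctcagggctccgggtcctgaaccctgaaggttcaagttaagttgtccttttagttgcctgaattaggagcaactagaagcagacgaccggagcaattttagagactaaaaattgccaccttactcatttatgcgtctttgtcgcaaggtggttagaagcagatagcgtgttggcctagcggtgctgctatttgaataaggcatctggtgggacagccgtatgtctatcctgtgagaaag
Bckdhb: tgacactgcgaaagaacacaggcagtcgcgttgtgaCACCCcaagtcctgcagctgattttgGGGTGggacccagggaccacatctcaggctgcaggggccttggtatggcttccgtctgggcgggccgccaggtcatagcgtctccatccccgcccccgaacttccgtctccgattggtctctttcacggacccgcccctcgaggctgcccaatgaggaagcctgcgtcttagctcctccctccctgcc

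Within the first pair, *Hibadh* had 1 match and *Hibch* had 0. Within the second, *Bckdhb* had 2 matches and *Bckdha* had 0. Neither pair shared the motif, and none of the 4 windows held CACGTG.

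Among regulators of the pathway, *Mlxipl* stood out. It encodes ChREBP, a glucose-responsive transcription factor that in liver raises the kinase and lowers the phosphatase of the dehydrogenase. Its normalized counts were 365.2, 301.6, 246.5, 320 and 269.2 in NP and 200.9, 189.8, 194.7, 163.7 and 168 in HF, and every HF mouse was below every NP mouse. It fell in HF against NP, with a log2 fold change of -0.71 ± 0.13 (edgeR, adjusted p = 0.00857), and on high fat averaged over protein, at -0.685 ± 0.09 (edgeR, adjusted p = 0.000222). The first of these calls was lost in 20 of 30 alternatives, with adjusted p-values up to 0.089, and the second in 1 of 29, with an adjusted p of 0.0511 when the animal number was a block (edgeR). In HF + LP against LP it was at -0.66 ± 0.13 (edgeR, adjusted p = 0.0233), again with no overlap between 293.4 to 367.9 in LP and 151.2 to 240.8 in HF + LP and with an adjusted p above the 0.01 required for a call in edgeR. It was called there with DESeq2 (adjusted p = 0.000687) and at a threshold of 0.05. With each mouse left out in turn its adjusted p was 0.0171 to 0.0698, and among the other alternatives it reached 0.701 (edgeR). Of the other 5 regulators, *Klf15*, *Ppara*, *Ppargc1a*, *Ppargc1b* and *Esrra*, none was called in any comparison. *Klf15*, the factor best known for driving this pathway in heart, was at -0.36 ± 0.28 on high fat averaged over protein (unadjusted p = 0.215).

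**Figure D5:**
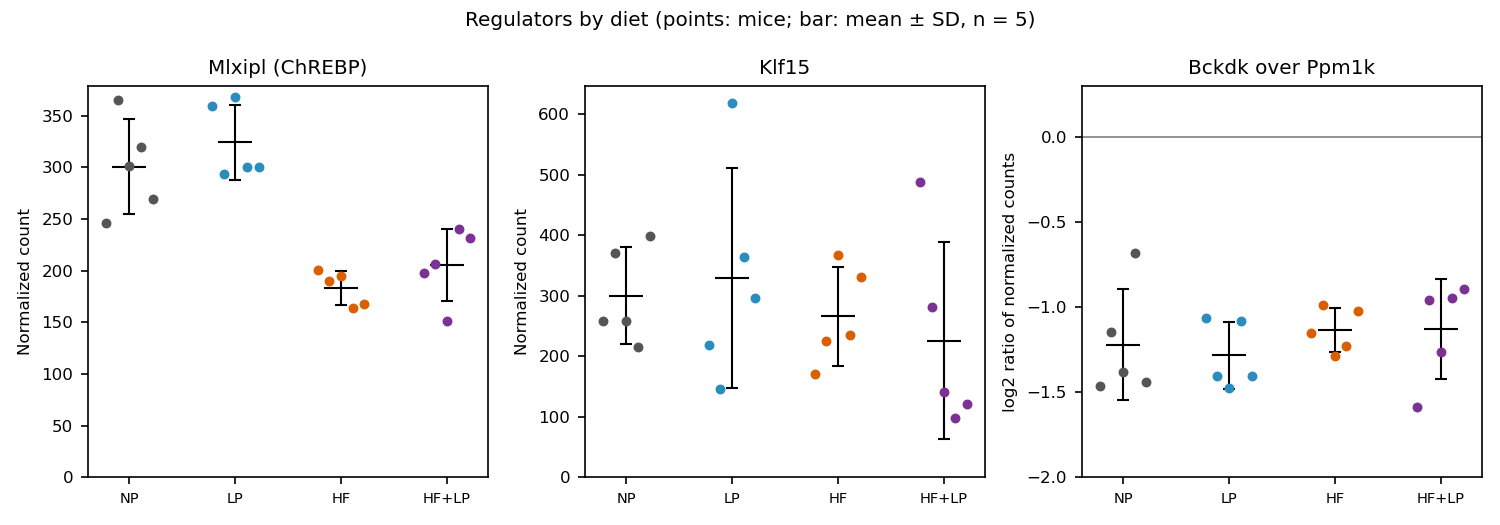
Levels of *Mlxipl* and *Klf15* in TMM-normalized counts, and the log2 ratio of *Bckdk* to *Ppm1k*, by diet (points, mice; bars, mean ± SD, n = 5 per diet). *Mlxipl* is lower in every mouse of both high-fat diets than in any mouse of the other diets, whereas *Klf15* and the ratio overlap between all diets.

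The rest of the pathway was read from a list of 20 further genes, of which 19 were tested. *Bcat1*, the cytosolic aminotransferase that is scarce in heart, did not pass the filter. In HF against NP, 16 of the 19 were lower, with a median log2 fold change of -0.10, and none was called. *Pccb*, a subunit of propionyl-CoA carboxylase, was at -0.29 ± 0.13 (unadjusted p = 0.0352), and its groups did not overlap. *Acadsb*, the isoleucine branch dehydrogenase, was at -0.22 ± 0.10 (unadjusted p = 0.0477). In LP against NP, which shares the NP mice, 16 of the 19 were lower too (median log2 fold change -0.132). In HF + LP against LP, 9 were lower and 10 higher (median 0.002), 1 and 3 of them with an unadjusted p under 0.05 (edgeR). On high fat averaged over protein, *Pccb* was at -0.31 ± 0.09 (adjusted p = 0.0588), *Mccc2*, the partner subunit of *Mccc1*, at -0.24 ± 0.11 (adjusted p = 0.22) and *Mmadhc*, of cobalamin handling, at 0.27 ± 0.08 (adjusted p = 0.0559, all edgeR).

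Neighbouring mitochondrial genes were listed for comparison. Of 14 citrate cycle genes, 12 were lower in HF against NP, with a median log2 fold change of -0.145, and none was called. *Ogdh*, the decarboxylating subunit of the oxoglutarate dehydrogenase and a relative of *Bckdha* and *Bckdhb* in reaction type, was at -0.50 ± 0.10 with no overlap between the groups (edgeR, adjusted p = 0.0196). Of 10 genes of the pyruvate dehydrogenase complex and its regulators, 6 were lower and none was called. *Pdk4*, the fatty acid responsive kinase of that complex and a relative of *Bckdk*, was at 2.21 ± 0.91 (edgeR, adjusted p = 0.283), and *Pdp2*, a phosphatase of it, at -0.62 ± 0.18 with no overlap (edgeR, adjusted p = 0.0849). In LP against NP, 13 of the 14 citrate cycle genes and 6 of the 10 pyruvate dehydrogenase genes were lower, with medians of -0.128 and -0.087. In HF + LP against LP, 7 and 2 were lower, with medians of 0.027 and 0.104. The medians of these lists were not tested against that of the 10 genes.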

How the data were processed

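RNA from the left ventricle of 20 mice, 5 per diet, was measured with the QuantSeq 3′ kit. Reads were aligned on the BlueBee platform by the authors, who deposited raw counts for each Ensembl gene in each mouse. The submitters' processing notes name GRCm38 and DESeq2 1.22.2, and the counting program and annotation are not given in the sources used here. The table holds 15956 genes, and the lowest sum of a gene across libraries is 60 counts. Mice were grouped by the diet in the sample labels, and each library carries its own animal number within a diet.

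Counts were filtered in R 4.3.3 with filterByExpr by diet, which kept 13991 genes, scaled by TMM and fitted with the quasi-likelihood test of edgeR 4.0.16, with all 20 libraries in the model and Benjamini-Hochberg adjustment over all tested genes. A call required an adjusted p under 0.01 and a mean level over 50. Standard errors were derived from the F statistic. The test was tried on simulated data for HF against NP with 13991 genes and 200 true changes of 1.5 on the log2 scale, and it recovered 165 (82.5%) and called 0 unchanged genes. Alternatives were RLE size factors, DESeq2 1.42.0, other filters and thresholds, a model of only the 2 diets compared, a block by animal number, a covariate from the library names, and the omission of each mouse in turn. Leaving out the 3 mice with the lowest *Hibch* was added after the values were seen.

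All 10 members are named. Full statistics are given for a member with an unadjusted p under 0.05 in a comparison, or else for the smallest p, and up to 3 genes of each other list with the smallest p are named. *B3gnt8*, *Myh6* and *Myh11* were named after their values were seen. The members and the lists were chosen with earlier results of these data known. Promoters came from RefSeq (GRCm38.p6), in which 9 of the 10 members had an entry. Protein sequences were not used here.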

Additional observations from a re-analysis of the deposited data

Results flagged for a closer look

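Each of the 10 genes was checked in each of the 4 diet groups for a mouse far from the other 4, and 3 of these 40 groups held one; with the limit used, chance gives about 1 in 20, or 2 of 40. In HF + LP, *Dbt* was at 795.8 normalized counts in animal 1, where the other 4 mice were at 449.8 to 537.4. In the same mouse *Ppm1k* was at 1850, where the others were at 1347 to 1425. The gap to the nearest mouse was 0.747 of the whole range for *Dbt* and 0.845 for *Ppm1k*, above the limit of 0.71. *Hibadh* was at 998.2 normalized counts in HF + LP animal 5, where the others were at 2703 to 3376, a gap of 0.717 of the range.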

How the results depend on the processing

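None of the 10 genes was called in any comparison under any alternative tried, with 1 exception. At an adjusted p under 0.05, 1 gene, *Bcat2*, was called on high fat averaged over protein. DESeq2 also called 0 of the 10 in every comparison. In HF against NP it gave 5 of them an unadjusted p below 0.05. For *Bcat2* on high fat averaged over protein, the log2 fold change was -0.536 to -0.415 with each mouse left out in turn, with adjusted p-values of 0.0112 to 0.0697 (edgeR), and DESeq2 gave an adjusted p of 0.0106. The correlation of *Bcat2* with *Bckdha* turned from -0.23 to 0.082 without LP 13. The animal numbers did not pair the mice. Same-numbered mice are different animals. Their deviations correlated at -0.482 to 0.13 in HF against NP (3 pairs) and at -0.553 to 0.476 in HF + LP against HF (5 pairs). In LP against NP the value was 0.208 (1 pair), and in HF + LP against LP the values were -0.018 and 0.375 (2 pairs). With the number as a replicate block, *Bcat2* on high fat averaged over protein was at -0.303 (adjusted p = 0.407 in edgeR) and in HF + LP against LP at -0.153 (adjusted p = 1 in edgeR), where *Bckdhb* was the most negative at -0.447, and still 0 of the 10 were called. Of the 10, 3 then had an unadjusted p under 0.05 in HF against NP and 0 in LP against NP. Over all genes, calls in HF against NP were 37, and 158 with DESeq2, 2 with the block and 20 to 69 with a mouse left out. On high fat averaged over protein they were 140, and 502 at an adjusted p under 0.05, 13 with the block and 79 (without HF 4) to 198 (without LP 5) with a mouse left out. In HF + LP against LP they were 14, and 81 with DESeq2, 0 with the block and 1 to 16 with a mouse left out. With DESeq2, 3 genes were called in LP against NP and 16 in HF + LP against HF, where edgeR called 0. The cause of these shifts was not tested.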
